A study of Schizosaccharomyces pombe with 40 samples.

Results

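The comparison described here is that of ell1Δ cells with wild-type cells of the Schizosaccharomyces pombe strain Pem2, taken as the 2 ell1Δ and the 2 wild-type polyA RNA libraries that the labels place in that strain, 4 of the 40 samples of the series. The Pem2 ell1Δ strain carries delta-ell1::natMX6, a drug-resistance cassette in place of ell1, in the PEM-2 background. The Pem2 wild type is an h- strain with the auxotrophic alleles ade6-M210, leu1-32 and ura4-D18. At the mating-type locus it carries mat1_m-cyhS with smt0, and at rpl42 it carries rpl42::cyhR(sP56Q). Where the effect is set beside that in another strain, the pair is ell1Δ and wild-type libraries of strain ED666 whose replicate labels end in b, 2 of each, called ED666b. These are h+ cells with the same 3 auxotrophic alleles, and in their ell1Δ strain the cassette is delta-ell1::kanMX6. Every group was grown at 32 °C in the rich medium YES, to which adenine, histidine, leucine and uracil were added (225 µg/ml), and harvested in mid log phase. The labels do not say whether replicates were separate cultures or separate clones. The p-values thus cover no more than the variation seen among the fitted libraries, part of which can be technical. The spread was also estimated from eaf1Δ and wild-type libraries of ED666 without the b, 3 of each.

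ELL is an elongation factor that binds RNA polymerase II and raises the rate at which it moves along a gene, and EAF is its binding partner. In fission yeast they are encoded by ell1 and eaf1, and the series adds ebp1, whose product is a further member of the complex. Antisense RNAs are made from the strand opposite a coding gene, and fission yeast keeps most of them at low levels through histone deacetylation, chromatin remodelling and nuclear RNA decay.

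The table held 7013 genes, of which 6145 passed a minimum of 1 scaled CPM in at least 2 libraries. Scaled CPM is the authors' per-library value, in which 1 read has the same worth for every gene. The 4 Pem2 libraries held 35337271 to 40796006 reads in all, and 3 reads, taken as the floor, were worth 0.0735 to 0.0835 scaled CPM. On the log2 scale the replicates correlated across genes at 0.995 in ell1Δ and 0.996 in wild type, and they differed by more than sampling noise. The labelled mating types were checked on genes of both cell types. The P-cell gene mat2-Pc stood at 0.0245 to 0.0557 in the 4 Pem2 libraries, under the floor, against 5.63 to 8.48 in the 4 ED666b libraries. The M-cell gene mat1-Mc was at 0.0735 to 0.306 in Pem2 and listed at 0 in ED666b, and ura4, for which both wild types are labelled ura4-D18, was at 0 in all 8. The M-cell gene mat1-Mm was also at 0 in all 8. The summed level of 8 P-cell genes overlapped between the strains, at 588.6 to 650.2 in Pem2 and 596.2 to 707.7 in ED666b. Most of it was sxa1 alone, at 504 to 613 per library. The sum of 12 M-cell genes did not overlap, at 254.3 to 420.5 in Pem2 and 232.3 to 250.7 in ED666b. That separation rested on mfm2, at 22.3 to 114 in Pem2 and 4.79 to 6.27 in ED666b. Of the other tested members, mam4 was also higher in Pem2 (79.1 to 109, against 71.9 to 78.5), as was mfm1 (1.03 to 2.37, against 0.395 to 0.804). The strains overlapped for mam1, mam2, mam3, mfm3 and sxa2. For example, mam3 was at 48.5 to 54.9 in Pem2 and 54.6 to 63.2 in ED666b.

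The targeted gene came first. In the ell1Δ libraries ell1 (SPBP23A10.14c) was measured at 25.3 and 31.1 scaled CPM, against 68.5 and 71.4 in wild type. The groups did not overlap, yet the ell1Δ libraries kept a level far above the floor. By limma with Benjamini-Hochberg adjustment over all genes tested, ell1 fell by 1.29 on the log2(scaled CPM + 1) scale (SE 0.16, adjusted p = 0.0115). In ED666b it was 16.6 and 20.6 in ell1Δ, against 84.6 and 73.5 in wild type. The sources used here do not say which part of the gene the cassette replaced. With any 1 of the 4 Pem2 libraries left out, the log2 fold change of ell1 lay between -1.43 and -1.14 and its limma adjusted p between 0.0587 and 0.147. The partners did not pass the test. For eaf1 the levels were 64.5 and 63.7 in ell1Δ, against 57.6 and 56.7 in wild type (log2 fold change 0.16, SE 0.12), and for ebp1 they were 86.9 and 82.6, against 84.9 and 77.2 (0.06, SE 0.12). The neighbouring gene orc4, for an origin recognition subunit, was at 111 and 102 in ell1Δ and at 94.4 and 90.2 in wild type, without overlap but short of the threshold (0.20, SE 0.08, limma adjusted p = 0.985). On the other side, qcr1, a subunit of respiratory complex III, was at 722 and 594 in ell1Δ, against 725 and 602 in wild type.

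Few transcripts changed in Pem2, and most of those that rose were antisense RNAs. At an adjusted p of 0.05, 23 of 6145 genes were called (0.374%), 18 higher in ell1Δ (0.293%) and 5 lower (0.0814%). Of the 18 that rose, 14 were antisense RNAs, 2 were other noncoding RNAs and 2 were coding. Of the 5 that fell, 4 were coding, ell1 among them, and 1 was noncoding. Of all genes tested, 90.09% lay within 0.25 of no change on the log2 scale, and 42 differed by 2-fold or more. The groups did not overlap for any of the 23. The background for that count is wide, since 1176 genes (19.1%) were higher in both ell1Δ libraries than in both wild-type ones and 1148 (18.7%) were lower. At an unadjusted p of 0.05 the count was 250 (4.07%), with 157 higher (2.55%) and 93 lower (1.51%). In 23 other settings of the analysis the single calls held in 3 to 21, and 10 of the 23 held in 8 settings or fewer. With 1 Pem2 library left out at a time, 1 call held each time, that of SPBPB10D8.01, and 10 held in no case.

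**Figure D1:**
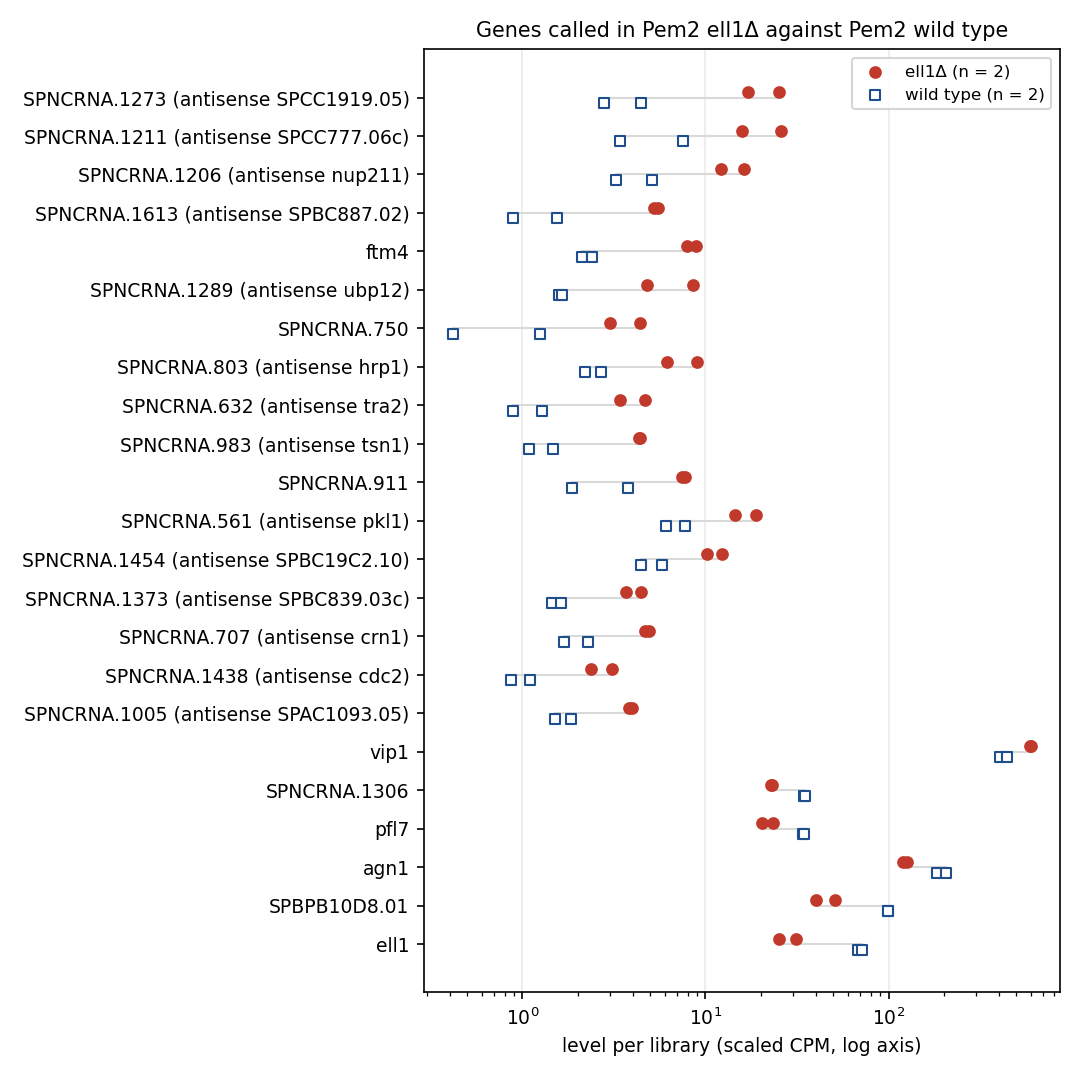
Levels of the 23 called genes in each Pem2 library, in scaled CPM on a log axis, with ell1Δ libraries as filled circles and wild-type libraries as open squares, ordered by fold change. All 14 antisense RNAs stood between 2.37 and 25.7 in ell1Δ libraries, against 0.863 to 7.73 in wild-type libraries, and no row has overlapping groups.

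The antisense RNA with the largest called rise was SPNCRNA.1273, named in the table as antisense to SPCC1919.05 (ski3, a subunit of the Ski complex that feeds RNA to the exosome). It was at 17.0 and 25.2 scaled CPM in ell1Δ, against 2.78 and 4.44 in wild type. Its log2 fold change was 2.26 (SE 0.29, limma adjusted p = 0.0123). Every ell1Δ value lay well above both wild-type values. SPNCRNA.1211, antisense to the hydrolase gene SPCC777.06c, was at 15.8 and 25.7 in ell1Δ, against 3.40 and 7.51 in wild type (1.79, SE 0.27, limma adjusted p = 0.0239). SPNCRNA.1206, antisense to nup211 for the nuclear pore basket protein, was at 12.1 and 16.2 in ell1Δ, against 3.23 and 5.08 in wild type. That rise of 1.57 (SE 0.16) had the lowest adjusted p of the 14, 0.00504 by limma with Benjamini-Hochberg adjustment. SPNCRNA.1613, antisense to the chloride channel gene SPBC887.02, was at 5.20 and 5.49 in ell1Δ, against 0.891 and 1.55 in wild type, a difference of 1.53 (SE 0.21).

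A further 4 called antisense RNAs had a mean of 5 or more in ell1Δ, with rises of at least 1.01. Their sense genes encode a ubiquitin protease (ubp12, SPNCRNA.1289), a chromatin remodeller of the Chd1 family (hrp1, SPNCRNA.803), a kinesin (pkl1, SPNCRNA.561) and a BAR adaptor protein (SPBC19C2.10, SPNCRNA.1454). SPNCRNA.561 was at 14.4 and 18.8 in ell1Δ, against 6.10 and 7.73 in wild type (1.15, SE 0.16, limma adjusted p = 0.0133). SPNCRNA.1454 was at 10.3 and 12.3 in ell1Δ, against 4.43 and 5.82 in wild type (1.01, SE 0.12, limma adjusted p = 0.00841). SPNCRNA.803 was at 6.15 and 8.99 in ell1Δ, against 2.20 and 2.67 in wild type, and SPNCRNA.1289 was at 4.78 and 8.50, against 1.59 and 1.64. In both of the last the ell1Δ replicates lay further apart than the wild-type ones, and the calls held in 8 of 23 other settings for SPNCRNA.803 and in 4 for SPNCRNA.1289. The remaining 6 called antisense RNAs, SPNCRNA.1005, SPNCRNA.1373, SPNCRNA.1438, SPNCRNA.632, SPNCRNA.707 and SPNCRNA.983, had a mean under 5 in both groups and are named because they complete the 14. They lie opposite the RNA helicase gene hca4, the neddylation gene dcn1, the cell cycle kinase gene cdc2, the transcription co-activator gene tra2, the coronin gene crn1 and the translin gene tsn1. Their log2 fold changes were 0.88 to 1.27, and as low values they are understated by the added 1. The calls held in 3 of 23 other settings for SPNCRNA.632, in 6 of 23 for SPNCRNA.707 and in 6 of 22 for SPNCRNA.1005. They held in 13 of 22 for SPNCRNA.1438 and in 15 of 22 for SPNCRNA.1373 and SPNCRNA.983.

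The coding genes opposite the 14 called antisense RNAs were all tested, and 0 were called by limma. At an unadjusted p of 0.05 the count was 1, tsn1, at 105 and 106 in ell1Δ, against 87.2 and 95.3 in wild type. The sense log2 fold changes ran from -0.12 to 0.21 with a median of 0.04, and 3 of 14 were negative. For ski3 the sense levels were 55.5 and 63.6 in ell1Δ, against 48.0 and 58.1 in wild type, so the groups overlapped. For cdc2 they were 147 and 159 in ell1Δ, against 154 and 151 in wild type. Divided by transcript length, the antisense level was 11.4% of the sense level at the median of the 14 pairs in ell1Δ, against 3.83% in wild type. The range was 2.57% to 115.8% in ell1Δ and 1.07% to 35.3% in wild type. The pairs at the top were ski3 with 115.8% in ell1Δ, against 22.2% in wild type, and pkl1 with 84.7%, against 35.3%. Over 539 antisense RNAs with a tested partner, Spearman's rho between antisense and sense log2 fold change was 0.03, across genes of the same libraries. The sources used here do not say whether reads were counted by strand, and without strand the reads of overlapping partners cannot be told apart.

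Antisense RNAs as a class sat above the other kinds of transcript. Of 635 named in the table, 564 passed the filter, and 14 of these rose and 0 fell by limma, with 78 higher and 10 lower at an unadjusted p of 0.05. edgeR on the recovered reads called 15 higher and 1 lower. Both ell1Δ libraries exceeded both wild-type ones for 33.5% of them, and the reverse held for 14.5%, against 19.1% and 18.7% of all genes. Their median log2 fold change was 0.06, and 351 were positive and 213 negative. Coding genes, 4962 tested, had a median of -0.0013, with 18.1% higher and 18.9% lower without overlap. The 529 other noncoding RNAs had a median of -0.03, with 13.6% higher and 19.3% lower. Among antisense RNAs with a mean of 5 or more over the 14 fitted libraries, 30.8% were higher and 19.0% lower without overlap. Among those with a mean under 5, 37.0% were higher and 8.64% lower, but coding genes at that level also leaned that way, with 30.6% higher and 10.2% lower. Quantile normalization lowered the antisense median to 0.02 and leaving out the second ell1Δ library lowered it to 0.02, without a change of sign.

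**Figure D2:**
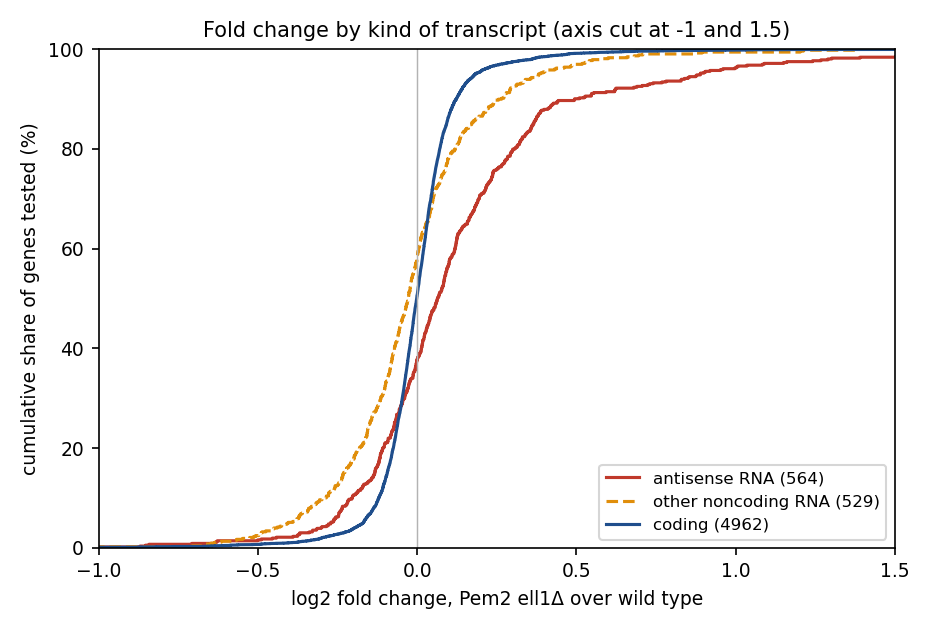
Cumulative share of tested genes by log2 fold change, Pem2 ell1Δ over wild type, for antisense RNAs, other noncoding RNAs and coding genes, with the number of genes in brackets. The antisense curve lies left of the coding curve at its lower end, crosses it a little below 0 and lies right of it above that, with medians of 0.06 for antisense RNAs and -0.0013 for coding genes.

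Several antisense RNAs differed by as much or more and did not pass. SPNCRNA.1271, opposite the kinase gene ckk2, had the largest log2 fold change of all genes tested, 2.98 (SE 0.68, limma adjusted p = 0.181). It was at 59.6 and 78.8 in ell1Δ, against 4.96 and 11.97 in wild type, without overlap, and at 61.8 and 54.6, against 14.1 and 8.11, in ED666b. SPNCRNA.687, opposite cph1 for a subunit of a Clr6 histone deacetylase complex, was at 97.3 and 67.6 in ell1Δ, against 27.1 and 26.6 in wild type (1.56, SE 0.53, limma adjusted p = 0.723). Its sense gene cph1 was also higher in every ell1Δ library, at 157 and 149, against 104 and 105 in wild type (0.54, SE 0.11, limma adjusted p = 0.0931). The pair at rhp16, a DNA repair gene, ran in opposite directions. There rhp16 was at 201 and 193 in ell1Δ, against 117 and 152 in wild type (0.56, limma adjusted p = 0.181), and its antisense SPNCRNA.1105 was at 8.59 and 8.58, against 16.9 and 15.7 (-0.85, limma adjusted p = 0.0529). These genes were picked for their values.

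The other rises were 2 coding genes and 2 noncoding RNAs. The coding gene with the larger one was ftm4 (SPAC750.05c), a transmembrane protein gene of a subtelomeric cosmid, at 7.89 and 8.92 in ell1Δ, against 2.12 and 2.40 in wild type. Its log2 fold change was 1.53 (SE 0.22, limma adjusted p = 0.0154). The genes near it in systematic name, SPAC750.01 and SPAC750.06c, had log2 fold changes of 1.04 and 0.94 and did not pass (limma adjusted p = 0.399 and 0.0931). Subtelomeric genes occur in near-identical copies between which reads can be split, so these 3 levels are uncertain. The second coding gene, vip1 (SPAC10F6.06), encodes an RNA-binding protein and was at 591 and 599 in ell1Δ, against 409 and 444 in wild type, a rise of 0.48 (SE 0.08, limma adjusted p = 0.0492), a call that held in 5 of 23 other settings. The noncoding RNAs were SPNCRNA.911, at 7.42 and 7.74 in ell1Δ, against 1.87 and 3.78 in wild type, and SPNCRNA.750, at 3.01 and 4.41, against 0.418 and 1.25. Neither is named as antisense to a gene, and SPNCRNA.750 is named because it completes the count.

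Beside ell1, 4 transcripts fell. SPBPB10D8.01, a cysteine transporter gene in a subtelomeric cosmid, was at 51.0 and 40.3 in ell1Δ, against 98.9 and 99.3 in wild type. It fell by 1.11 on the log2 scale (SE 0.11, limma adjusted p = 0.00428), the lowest adjusted p of the comparison. Reads of subtelomeric genes can be split between copies, which was not tested for SPBPB10D8.01. Its call held in 21 of 23 other settings and with each of the 4 Pem2 libraries left out in turn. The next tested gene before it in the order of the reference annotation was the noncoding RNA SPNCRNA.1306, also called, at 23.2 and 22.8 in ell1Δ, against 34.5 and 35.1 in wild type (-0.58, SE 0.10, limma adjusted p = 0.0477). The tested genes on from SPBPB10D8.01 were lower too and did not pass the test by limma. SPBPB10D8.02c was at 20.4 and 25.97 in ell1Δ, against 28.5 and 44.6 in wild type (-0.61, SE 0.34), and its antisense SPNCRNA.1307 at 10.8 and 7.06, against 18.1 and 14.9 (-0.84, SE 0.48). The pseudogene SPBPB10D8.03 was at 4.88 and 5.68, against 9.33 and 15.2 (-1.04, SE 0.33, limma adjusted p = 0.546). With SPBPB10D8.04c, at 5.73 and 6.57 in ell1Δ and at 5.04 and 6.31 in wild type, the groups overlapped again. This run of neighbours was picked for its values. In ED666b the log2 fold changes of SPBPB10D8.02c, SPNCRNA.1307 and SPBPB10D8.03 were 0.28, -0.04 and -0.05. pfl7, for a cell surface glycoprotein of the DIPSY family, was at 23.5 and 20.2 in ell1Δ, against 34.1 and 34.6 in wild type (-0.63, SE 0.11, limma adjusted p = 0.0459). The calls of pfl7 and SPNCRNA.1306 each held in 6 of 23 other settings. The remaining fall was that of the cell separation gene agn1. Outside the called genes, the pair SPBC460.04c and SPBC460.05 stood lower without passing, at 7.72 and 9.53 in ell1Δ, against 15.0 and 26.3 in wild type, and at 10.8 and 14.6, against 23.8 and 31.5.

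Daughter cells of fission yeast part when glucanases dissolve the septum and the wall around it. Of 8 genes in a list of cell separation, 1 was called, against 0.374% of all genes. Of the 8, 7 were lower in both ell1Δ libraries than in both wild-type ones, against 18.7% of all genes. The median log2 fold change of the 8 was -0.43, against -0.0004 over all genes. Those same 7 had an unadjusted p under 0.05, against 1.51% of all genes lower at that p. In bulk RNA, fewer cells in the stage that makes these transcripts and less RNA per cell cannot be told apart. agn1, for an endo-1,3-alpha-glucanase, was at 120 and 126 in ell1Δ, against 184 and 207 in wild type, and fell by 0.67 (SE 0.10, limma adjusted p = 0.0206). That call was lost when any 1 of the Pem2 libraries was left out, and over all other settings its adjusted p ran from 0.00826 to 0.192. eng1, for an endo-1,3-beta-glucanase, was at 204 and 227 in ell1Δ, against 325 and 346 in wild type (-0.64, SE 0.23, limma adjusted p = 0.787). The septum gene adg1 differed by -0.59, adg2 by -0.41 and adg3 by -0.37, and mid2, for an anillin-like protein of the septin ring, by -0.26. cfh4, a chitin synthase regulator, was at 163 and 175 in ell1Δ, against 224 and 241 in wild type (-0.46, SE 0.09, limma adjusted p = 0.0931). The exception was sep1, for a forkhead transcription factor, at 91.8 and 95.0 in ell1Δ and at 92.0 and 88.7 in wild type. The list was chosen with results of these data known, and its members act in the same step of the cell cycle, so their common direction is not independent evidence. Its median was -0.41 with each library rescaled to the same sum and -0.47 after quantile normalization, and over the 4 pairs of 1 ell1Δ and 1 wild-type library it ran from -0.61 to -0.24.

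**Figure D3:**
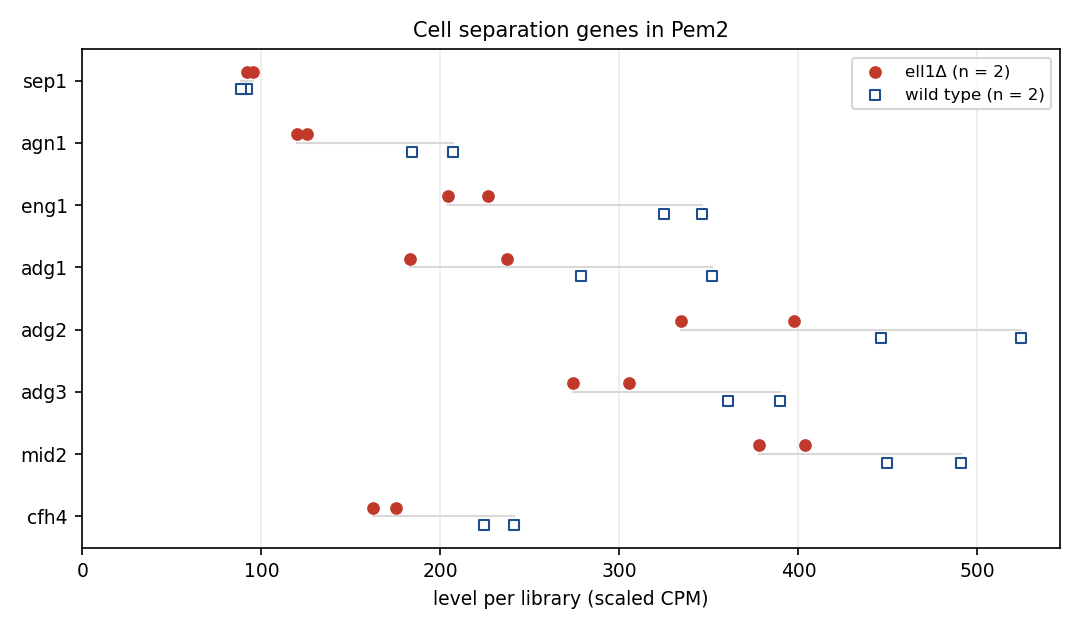
Levels of the 8 cell separation genes in each Pem2 library, in scaled CPM on a linear axis, with ell1Δ as filled circles and wild type as open squares. In 7 rows both ell1Δ points lie left of both wild-type points, for example 204 and 227 against 325 and 346 for eng1, and in the row of sep1 the groups overlap.

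The RNA polymerase II list held 12 subunits, the elongation factor list 22 genes, and the list of RNAi, heterochromatin and nuclear RNA decay genes 24. By limma 0 members of these lists were called, against 0.374% of all genes, and 0 had an unadjusted p under 0.05, against 4.07%. At a share of 0.374%, 0 calls does not set lists this short apart. edgeR on the recovered reads of the same 14 libraries called 0 members of the 3 lists and 24 genes in all. The medians of these 3 lists were -0.04, 0.0018 and 0.02. The elongation factor with the smallest p was prf1, for a factor of the Rtf1 family, at 187 and 185 in ell1Δ, against 165 and 180 in wild type. In the heterochromatin list it was clr4, for the H3K9 methyltransferase, at 47.0 and 49.5, against 45.4 and 45.0. Of 15 repressors of cryptic transcription, 1 had an unadjusted limma p under 0.05, against 4.07% of all genes. That was cph1, which edgeR called (adjusted p = 0.0379).

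Most stress and chaperone genes were positive without a call by limma or edgeR. In the heat shock list 13 of 16 genes were positive, with a median of 0.22, and 7 (43.8%) were higher without overlap, against 19.1% of all genes. Over the 4 pairs of 1 ell1Δ and 1 wild-type library that median ran from 0.0016 to 0.371. sti1, for an Hsp90 co-chaperone, was at 1268 and 1126 in ell1Δ, against 762 and 1044 in wild type (0.42, SE 0.15, limma adjusted p = 0.797). In the core stress list 11 of 20 were higher without overlap and the median was 0.20, or 0.07 to 0.25 over the pairs. tps1, for trehalose phosphate synthase, was at 675 and 650 in ell1Δ, against 354 and 509 in wild type (0.64, limma adjusted p = 0.912). Outside both lists and picked for its small p, hsp20, for a small heat shock protein, was at 231 and 235 in ell1Δ, against 128 and 164 in wild type (0.68, limma adjusted p = 0.235). In each of these 3 the lower wild-type value was that of replicate 1. In the opposite direction within the core stress list, gpd1, for glycerol-3-phosphate dehydrogenase, was at 974 and 1101 in ell1Δ, against 1267 and 1681 in wild type.

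Histone genes were lower in 9 of 10 cases, with a median of -0.17, and 7 lay below both wild-type libraries, against 18.7% of all genes. By limma or edgeR 0 were called. At an unadjusted limma p under 0.05 there were 3, all lower, against 1.51% of all genes lower at that p. hht1, for histone H3, was at 819 and 801 in ell1Δ, against 1016 and 969.7 in wild type (-0.29, SE 0.07, limma adjusted p = 0.275). Its divergent neighbour hhf1, for histone H4, was at 712 and 732, against 951 and 924 (-0.38, SE 0.11). Histone paralogues are close copies, so their separate levels are uncertain. Of the 139 cytosolic ribosomal protein genes 130 were negative and 69 (49.6%) lay below both wild-type libraries, against 18.7% of all genes, yet the median was -0.08 (-0.12 to -0.03 over the 4 pairs of libraries) and 0 were called by limma or edgeR, with 3 at an unadjusted limma p under 0.05. In ED666b their median was 0.03.

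**Figure D4:**
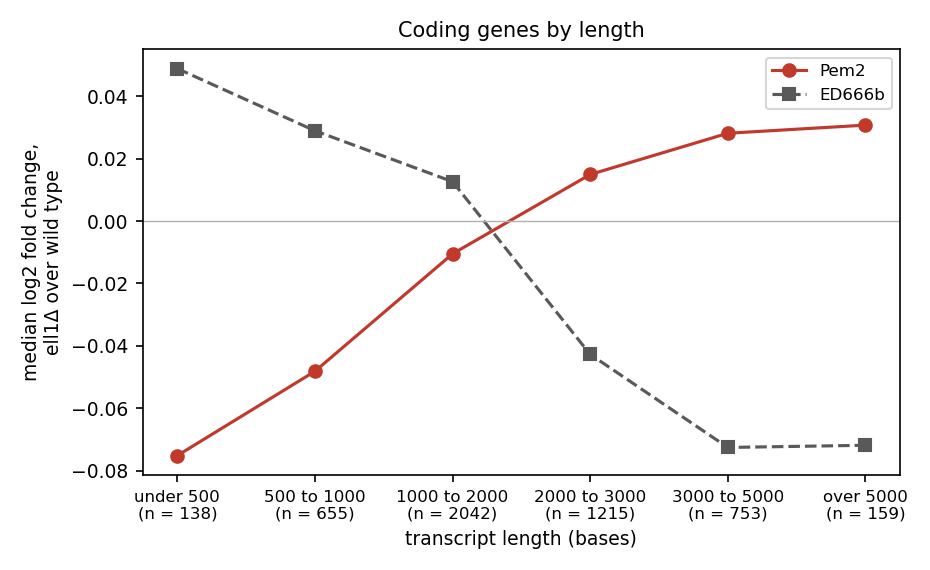
Median log2 fold change of coding genes, ell1Δ over wild type, by transcript length in bases, in Pem2 (circles) and ED666b (squares), with the number of genes per bin. The Pem2 line runs from -0.08 in the shortest bin to 0.03 in the longest, and the ED666b line runs the other way, from 0.05 to -0.07.

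The log2 fold changes of coding genes varied with transcript length. In Pem2 their median was -0.08 for transcripts under 500 bases and 0.03 for those over 5000 bases, with every bin in between in order. In ED666b the medians ran the other way, from 0.05 for the shortest transcripts to -0.07 for both of the longest bins. The Pem2 median of the ribosomal protein genes, -0.0837, lay below that of every length bin, the lowest of which was -0.0751. The 138 shortest genes were lower without overlap in 30.4% of cases and higher in 6.52%, while the 159 longest were lower in 6.29% and higher in 20.1%. Over all genes 18.7% were lower and 19.1% higher, so the share of the longest that were higher lay near that of all genes. None of the shortest or longest genes was called by limma, against 0.374% of all genes. The sources used here give neither cDNA fragment sizes nor RNA integrity, and their part in this was not tested.

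Of 5 phosphate acquisition genes 0 were called by limma or edgeR, against 0.374% of all genes by limma. At an unadjusted limma p under 0.05 there were 2, both lower, against 1.51% of all genes lower at that p. pho1, the secreted acid phosphatase of phosphate starvation, was at 567 and 311 in ell1Δ, against 1740.3 and 846 in wild type (-1.53, SE 0.53, limma adjusted p = 0.771). The phosphate transporter gene pho84 was at 895 and 502 in ell1Δ, against 1662 and 913 in wild type (-0.88, SE 0.40). In both groups replicate 1 stood well above replicate 2 for both genes. The same held for mfm2, an M-factor pheromone precursor made by h- cells, at 39.2 and 22.3 in ell1Δ, against 114 and 50.7 in wild type (-1.33, SE 0.37, limma adjusted p = 0.380). In ED666b, where mfm2 was at 5.001 and 6.27 in ell1Δ and at 4.79 and 5.01 in wild type, its log2 fold change was 0.16. Among 13 pheromone signalling genes 11 were negative with a median of -0.22 (-0.37 to -0.03 over the 4 pairs of libraries). By limma or edgeR 0 were called and 0 had an unadjusted p under 0.05, against 0.374% and 4.07% of all genes by limma. SPAC27D7.09c, of the But2 family, was at 151 and 220 in ell1Δ, against 33.0 and 90.1 in wild type (1.72, SE 0.51, limma adjusted p = 0.482). exg1, a glucan 1,3-beta-glucosidase gene, was at 366 and 301 in ell1Δ, against 592 and 465 in wild type (-0.66, SE 0.18, limma adjusted p = 0.380).

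The same deletion in ED666b was measured with other control libraries. There 28 genes were called (0.456%), and 14 were called in both strains, which is 60.9% of the Pem2 calls and 50.0% of the ED666b calls. Of these 14, 12 rose, 11 of them antisense RNAs, and the others were ell1 and agn1. All 23 Pem2 calls had the same sign in ED666b, where the 14 antisense RNAs had log2 fold changes of 0.59 to 1.99. Across 6145 genes the log2 fold changes of both strains had Pearson's r of 0.61 and Spearman's rho of 0.31. The strains share no control library, but differences between replicates 1 and 2 correlated across them, at 0.709 in ell1Δ and 0.424 in wild type. Both sets of libraries thus cannot be treated as independent. SPNCRNA.1206 was at 17.8 and 19.2 in ED666b ell1Δ, against 7.48 and 7.42 in ED666b wild type, and agn1 was at 136 and 141, against 212 and 192. The Pem2 calls closest to no change in ED666b were pfl7, SPBPB10D8.01, SPNCRNA.1306, vip1 and ftm4, with ED666b log2 fold changes of -0.02, -0.15, -0.20, 0.34 and 0.43. In ED666b pfl7 was at 38.9 and 39.2 in ell1Δ, against 38.1 and 41.0 in wild type, and SPBPB10D8.01 was at 124 and 134, against 136 and 150. SPNCRNA.1306 was at 32.2 and 36.9 in ED666b ell1Δ, against 42.5 and 37.4 in wild type. vip1 was at 660.3 and 676 in ED666b ell1Δ, against 536 and 519 in wild type, and ftm4 at 9.74 and 8.30, against 6.24 and 6.60.

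**Figure D5:**
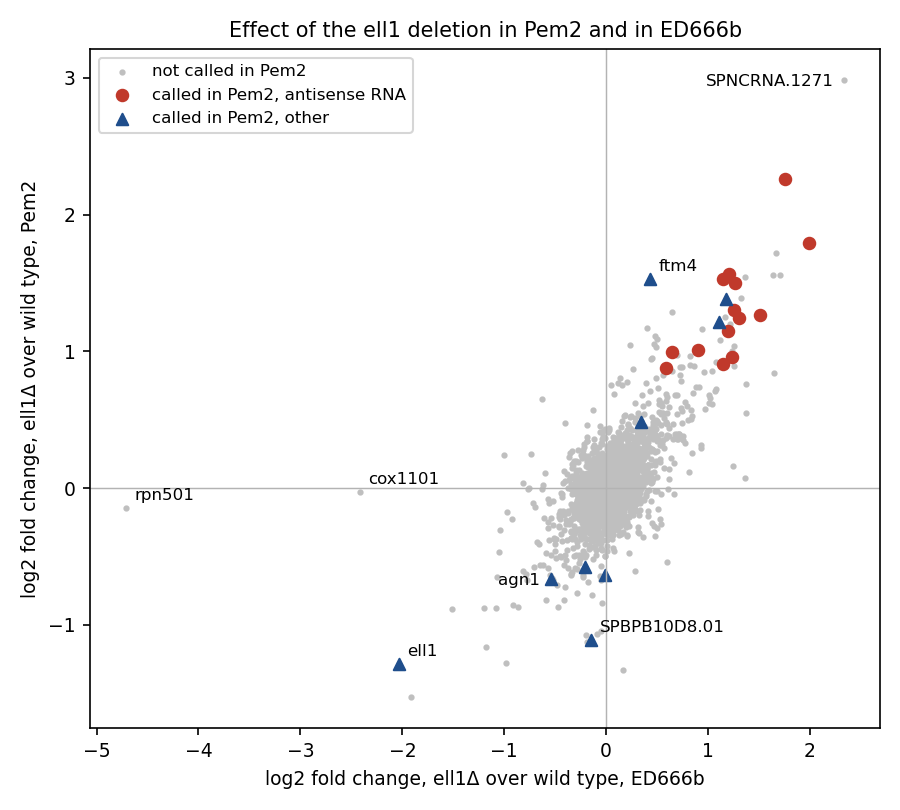
Log2 fold change, ell1Δ over wild type, in Pem2 (vertical) against ED666b (horizontal) for the 6145 genes tested, with the 23 genes called in Pem2 marked. The called antisense RNAs lie up and to the right, at 0.88 to 2.26 in Pem2 and 0.59 to 1.99 in ED666b, while rpn501 and cox1101 lie far left at about no change in Pem2.

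The difference between both ell1Δ effects was tested in the same model. By limma 2 genes were called (0.0325%), rpn501 and cox1101, and 52 (0.846%) had an unadjusted p under 0.05. None of the 23 Pem2 calls was among the 2, so a different size in the strains was not shown for any of them. For SPBPB10D8.01 the difference of the log2 fold changes was -0.96 (limma adjusted p = 0.129), and for ftm4 it was 1.097 (limma adjusted p = 1). rpn501 (SPAC1420.03), for a proteasome lid subunit, was under 1 scaled CPM in Pem2, at 0.548 and 0.564 in ell1Δ and at 0.891 and 0.564 in wild type. In ED666b it was at 0.822 and 0.497 in ell1Δ, against 43.3 and 41.0 in wild type. With rpn501 already under 1 in Pem2 wild type, a fall of that size could not show in Pem2. For this gene the test cannot tell a different effect from a different starting level. Its close copy rpn502 was at 144 and 137 in Pem2 ell1Δ and at 133 and 134 in Pem2 wild type, and at 135 and 139 in ED666b ell1Δ, against 92.5 and 85.2 in ED666b wild type. cox1101 (SPAC1420.04c), a cytochrome c oxidase assembly gene next to rpn501 in systematic name, was at 6.17 and 5.61 in Pem2 ell1Δ and at 6.15 and 5.91 in Pem2 wild type. In ED666b it was at 0.211 and 0.449 in ell1Δ, against 5.66 and 6.49 in wild type. Both genes have near-identical copies, so how reads were divided between copies bears on these levels.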

How the data were processed

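PolyA RNA-seq libraries of 4 Pem2 samples were compared, with 4 ED666b libraries beside them. The authors deposited 1 table of 7014 lines, with 1 repeated identifier. Its columns headed cpm hold a signal, whole reads times 1 constant per library, per the file headers and values; 100% of values came out whole within 0.01. The deposited RPKM columns gave gene lengths only. The table's wild-type columns named for ED666 were read as the ED666b wild type by elimination, since those named wt match the other wild-type titles; the Pem2 columns carry the strain's name. The authors' tools were TopHat2 2.1.1, SAMtools 1.3.1 and edgeR on build ASM294v2, per the submitters' processing notes; the sources used here name neither the read counter nor its use of strand. The reference annotation is of a later build and served for names and gene order only; 6845 identifiers matched. A further 3 RNA libraries, whose columns carry a code in no label, and 16 other per-library columns were not used. The 23 ChIP and input samples were not analysed here.

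A limma 3.58.1 model (R 4.3.3) of 6 group means was fitted to log2(scaled CPM + 1) over 14 libraries, so that groups of 2 and 3 share a spread (8 residual and 2.58 prior degrees of freedom). The groups were ell1Δ and wild type of Pem2 and of ED666b, with 2 libraries each. The others were eaf1Δ and wild type of ED666 without the b, with 3 each. The groups of 3 held 6486554 to 9193169 reads per library, against 35337271 to 43374049 in the groups of 2. Of the units the design foresaw, normalized values or counts, the signal was treated as normalized values. Genes at 1 or more in at least 2 fitted libraries were kept. Calls are at a Benjamini-Hochberg adjusted p of 0.05 over 6145 genes. The added 1 understates the change of low genes. The test was also run on data simulated from the group means and spread of the fitted libraries. In that simulation of the Pem2 comparison over 6145 genes 82.0% of 50 genes raised 2-fold and 48.0% of 50 raised 1.5-fold were called. Its replicates were drawn independently, whereas deviations of same-numbered Pem2 libraries correlated at 0.657. These shares thus need not hold for the real libraries. edgeR 4.0.16 (quasi-likelihood) on the recovered reads was an alternative, as were other pseudocounts, filters, scalings, fits on fewer libraries, a replicate block and leaving out each library. The floor of 3 reads covers counting error only, since reads are not independent molecules.

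Members and gene lists were chosen with earlier results of these data known. Named genes are ell1, eaf1 and ebp1; up to 12 called genes in each direction with no overlap and a mean of 5 or more in the higher group; up to 4 called members of each list, or the member with the smallest p; the genes called in the difference of effects; and all cell separation genes but 1, which is not reported here. Others are said to be picked for their values or complete a count.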

Additional observations from a re-analysis of the deposited data

Results flagged for a closer look

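For 2 genes the measured ell1Δ effect differed between the strains by the test of the difference itself. For 1 of them, rpn501, the wild types already differed, and its level in Pem2 wild type left no room for a fall like that in ED666b. For rpn501 the log2 fold change in Pem2 exceeded that in ED666b by 4.56 (SE 0.18, limma adjusted p = 4.71e-07), with -0.14 in Pem2 and -4.71 in ED666b. Its 4 Pem2 libraries stood at 0.548 to 0.891 scaled CPM, while ED666b was at 0.822 and 0.497 in ell1Δ, against 43.3 and 41.0 in wild type. For cox1101, next to it in the annotation, the difference was 2.38 (SE 0.22, limma adjusted p = 0.00126), with -0.03 in Pem2 and -2.41 in ED666b. The tested genes on either side of the pair, cct5 and yip12, had log2 fold changes of 0.05 and -0.08 in Pem2 and of -0.05 and -0.06 in ED666b. The close copies rpn502 and cox1102 had differences of -0.55 and -0.61, which did not pass (limma adjusted p = 1 each). With 2 libraries in each group, single libraries far from their group could not be flagged.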

How the results depend on the processing

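Pem2 calls numbered 23, and the count rested on the libraries that lent their spread. It was 0 when only the Pem2 libraries were fitted, by limma (523 at an unadjusted p under 0.05) and by edgeR (491), and 5 by edgeR on the ED666b and Pem2 libraries. It was 15 with a pseudocount of 0.25, 13 with no filter, 11 after quantile normalization and 11 with limma's trend and robust options. Leaving out 1 library in turn gave 1 to 44 calls. The count was 9 and 1 without the first and second Pem2 ell1Δ library, 2 and 14 without the first and second Pem2 wild type, and 13 without any 1 of the ED666b libraries. It was 44 (37 higher, 7 lower), all 23 among them, without the third ED666 wild-type library. In that library the 10 most abundant genes took 6.28% of reads, against 8.62% and 7.86% in the other 2. edgeR on 14 libraries called 24, of which 21 were shared with limma.

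For ell1 the log2 fold change was -1.29 (limma adjusted p = 0.125) and -1.31 (edgeR adjusted p = 0.0918) with only Pem2 libraries, and -1.43 to -1.14 with 1 library left out. The ED666b count of 28 became 14 by limma and 17 by edgeR on the ED666b and Pem2 libraries, and 5 to 47 with 1 library left out. The antisense median of 0.064 became 0.0179 after quantile normalization, and 0.0187 to 0.0901 with 1 Pem2 library left out. No call changed sign under these alternatives, but values close to 0 that did not pass the test did: ebp1 was at -0.0027 without the second Pem2 wild type, and cox1101 at 0.0289 without the second Pem2 ell1Δ library. With each library rescaled to the same sum, that of coding genes was 0.0197, not -0.0013, and that of all genes 0.0202, not -0.0004.

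Replicate numbers 1 and 2 recur in each group without a stated meaning, and deviations of same-numbered Pem2 libraries correlated at 0.657. With the replicate number as a block, 24 genes were called (15 higher, 9 lower), 15 of them shared, mfm2 passed (limma adjusted p = 0.0109), vip1, pfl7, ftm4 and SPNCRNA.1306 were among those lost, and the difference of effects gave 1 call, not 2. The cause of these moves was not tested. The alternatives without ED666b or ED666 libraries and edgeR on fewer libraries were chosen after seeing the data.

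Values near the floor of 0.0735 to 0.0835 scaled CPM cannot show a difference at this depth.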
